A study of Glycine max with 9 samples.

Results

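SACPD-C is a soybean (Glycine max) gene for a stearoyl-acyl carrier protein desaturase. It is 1 of 62645 gene identifiers in the transcript table, found by its symbol, and it was chosen from these data by its low levels in root tips after sucrose. Its levels and its differences between times are therefore described without a test. The table places SACPD-C on the minus strand of chromosome 14, at 34452313 to 34455008 of the build Glycine_max_v4.0. It has 1 transcript of 1849 bases in 2 exons, with no other isoform listed.

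Stearoyl-ACP desaturases are soluble enzymes of the plastid that put the first double bond into a newly made fatty acid and turn stearoyl-ACP into oleoyl-ACP. Membrane desaturases named FAD then add further double bonds, FAD2 and FAD6 at the omega-6 position and FAD3, FAD7 and FAD8 at the omega-3 position. Soybean has several stearoyl-ACP desaturase genes, and SACPD-C is known from high-stearate seed mutants and for its activity in nodules.

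The study asked how soybean roots respond to sucrose within minutes, since sucrose that reaches the root from the shoot is thought to signal nutrient deficiency. Plants of the cultivar Williams 82 were grown for 4 weeks in dilute Hoagland solution, and 2 cm sections with the root tip were taken from 3 plants at each time. The groups are t0 (no sucrose), t20 (20 min in 10 mM sucrose) and t40 (40 min in 10 mM sucrose), with 3 libraries each. All plants were of 1 genotype, and no group without sucrose was harvested at 20 or 40 min, so sucrose and time after t0 cannot be told apart. Libraries 1 to 3 are t0, libraries 4 to 6 are t20 and libraries 7 to 9 are t40. Values are FPKM, which divide fragments by the length of the transcript and the size of the library. The number of reads behind a value is not known from FPKM alone.

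The sections hold a mixture of root cells. Of 23 genes with the symbols NRT2 (nitrate transport), PIN (auxin carriers), IFS (isoflavone synthase) or PT, for which the reference gives no product, 20 were above 0. Their summed FPKM ranged over 326 to 491 in t0, 345 to 504 in t20 and 557 to 716 in t40 libraries. IFS2 and NRT2 made up much of the higher sum at t40, with means of 176 and 114 FPKM at t40 against 16.9 and 10.9 FPKM at t0, while PIN1B averaged 30.1 FPKM at t40 against 57.5 FPKM at t0. Leghemoglobin genes LBA, LBC1 and LBC3 and ENOD93 were listed at 0 in all 9 libraries, and the 8 nodule genes summed to 98.3 to 275 in t0, 131 to 439 in t20 and 250 to 312 in t40 libraries, mostly from NOD33. The 4 leaf genes summed to 140 to 353 in t0, 163 to 672 in t20 and 107 to 138 in t40 libraries, and the highest sum was that of library 6. Seed storage genes were at 0 for 7 of 9, with sums of 0.407 to 2.10. Whether cell makeup contributed to the levels of SACPD-C was not tested.

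SACPD-C was well expressed in root tips before sucrose and was lower at both later times. Its FPKM was 55.9, 54.0 and 84.1 at t0. At t20 it was 2.94, 19.3 and 19.8, and at t40 it was 5.48, 1.64 and 1.56. Every sucrose-treated library was below every t0 library, but t20 and t40 overlapped, because library 4 of t20 was below library 7 of t40. Among all 32763 genes tested, 7.73% had all t20 libraries below all t0 libraries and 20.8% had all t40 libraries below all t0 libraries. In these bulk samples, fewer cells that express SACPD-C and less of its RNA per cell cannot be told apart.

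**Figure D1:**
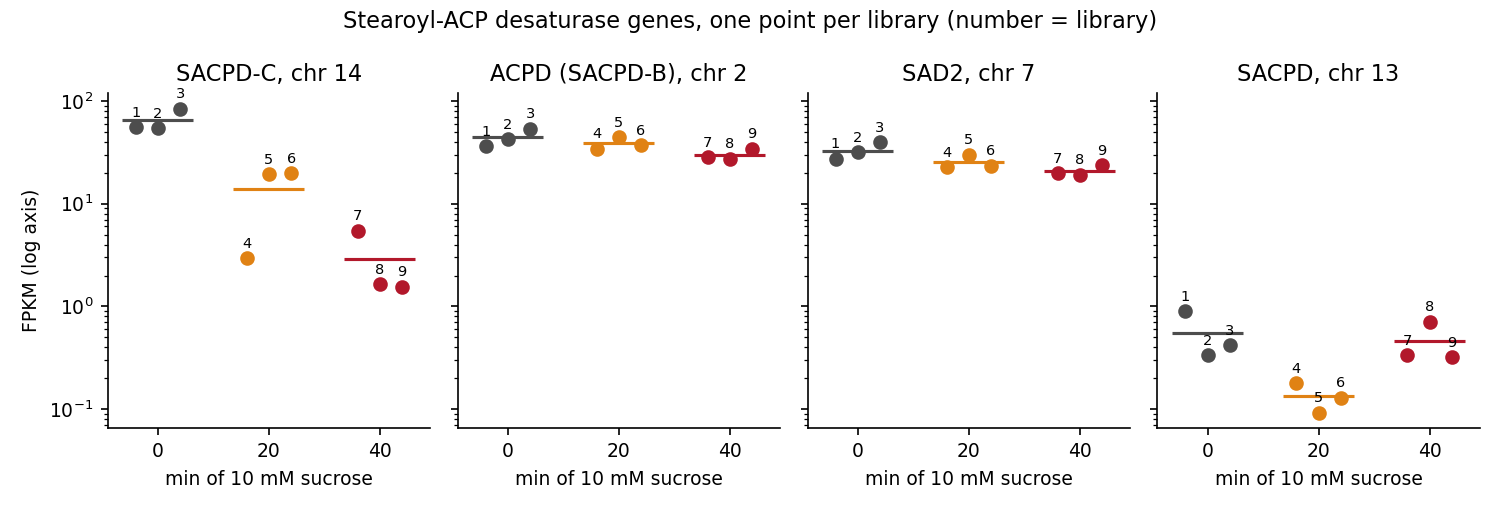
FPKM of SACPD-C and of the stearoyl-ACP desaturase genes ACPD, SAD2 and SACPD in each of the 9 libraries (points), with the mean of each time (line), on a log axis against minutes of sucrose. Numbers are the libraries. SACPD-C lay between 54.0 and 84.1 at t0 and between 1.56 and 5.48 at t40, while ACPD lay between 27.5 and 34.3 at t40.

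The mean FPKM of SACPD-C was 64.6 ± 16.8 at t0, 14.0 ± 9.58 at t20 and 2.89 ± 2.24 at t40 (SD, n = 3 each). The mean at t20 was 4.62-fold lower than at t0, and the mean at t40 was 22.3-fold lower than at t0. Library 7 held most of what was left at t40. Without it the t40 mean was 1.60 FPKM and 40.4-fold lower than at t0, against 18.4-fold without library 8 and 18.2-fold without library 9. On the log2(FPKM + 1) scale, which understates changes at low FPKM, the fitted difference of t20 from t0 was −2.44 (SE 0.61) and that of t40 from t0 was −4.19 (SE 0.61). This was the 5th most negative difference at 40 min among the 32763 genes tested, and the difference at 20 min was the 38th most negative. These ranks come from the contrast on which the gene was chosen.

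The position of SACPD-C among all genes shows the same drop. By FPKM it ranked 2217th, 2301st and 1465th in the t0 libraries, where each of the 9 libraries had between 42135 and 44143 genes above 0. At t20 it ranked 23734th, 6603rd and 6435th, and at t40 it ranked 18645th, 28746th and 29275th. Libraries 5 and 6 thus still held SACPD-C in the upper part of the genes detected, and library 4 held it in the lower part.

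Library 4 set much of the spread at t20. Placed on the scale from the t0 mean to the t40 mean of log2(FPKM + 1), SACPD-C had covered 96.1% of the way in library 4, 39.7% in library 5 and 38.9% in library 6. Without library 4 the mean of t20 was 19.5 FPKM, 3.31-fold lower than the mean of t0, and the log2 difference of t20 from t0 was −1.65. The difference of t40 from t20 was −1.75 (SE 0.61) with library 4 and −2.54 without it. Other genes were further along in library 4 as well, with 47.6% for FAD7-2, 41.1% for FAD7-1 and 50.1% for KASI, against 11.4%, 14.5% and −15.3% in library 5 and 32.4%, 29.3% and 23.1% in library 6. What sets library 4 apart was not tested.

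ACPD, SAD2 and SACPD are the other stearoyl-ACP desaturase genes by symbol or synonym. ACPD (SACPD-B, chromosome 2) had 36.0, 42.4 and 53.9 FPKM at t0, 34.4, 44.3 and 37.3 FPKM at t20, and 28.5, 27.5 and 34.3 FPKM at t40. SAD2 (chromosome 7) had 27.3, 31.6 and 39.6 FPKM at t0, 22.6, 30.0 and 23.4 FPKM at t20, and 19.7, 19.2 and 23.6 FPKM at t40. For both genes all t40 libraries were below all t0 libraries, as they were for 20.8% of all genes. The drop of both was far smaller than that of SACPD-C. SACPD (chromosome 13) stayed below 1 FPKM in all 9 libraries and was not tested. Its locus has the same span of 2696 bases as that of SACPD-C, and whether reads of the pair were split between them in the counting is not known.

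Neither ACPD nor SAD2 passed the call used here, an adjusted p under 0.05 (limma, Benjamini-Hochberg over 32763 genes) and a log2 fold change of 1 or more in either direction. At 40 min the log2 fold change was −0.52 for ACPD (95% interval −0.97 to −0.08, adjusted p = 0.0803) and −0.62 for SAD2 (−1.06 to −0.18, adjusted p = 0.0462). At 20 min the values were −0.18 for ACPD (adjusted p = 0.691) and −0.36 for SAD2 (adjusted p = 0.387). Since SACPD-C was chosen on these values, its difference from the other desaturases was not tested.

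The share of SACPD-C in the summed FPKM of the 4 stearoyl-ACP desaturase genes shows how the mix of their transcripts differed between times. SACPD-C made up 46.5%, 42.1% and 47.2% of the sum at t0. At t20 it made up 4.90%, 20.6% and 24.5%, and at t40 10.1%, 3.34% and 2.61%. The share was thus largest of the 4 genes before sucrose and smaller than those of ACPD and SAD2 in every library after it. The means were 45.3 ± 2.81%, 16.7 ± 10.4% and 5.36 ± 4.15% at t0, t20 and t40 (SD, n = 3 each). The sum of the 4 genes averaged 142 ± 31.3 FPKM at t0, 78.1 ± 16.9 FPKM at t20 and 54.3 ± 5.40 FPKM at t40. Without SACPD-C, the sum of the other 3 averaged 77.5 ± 15.0 FPKM at t0, 64.1 ± 9.08 FPKM at t20 and 51.4 ± 5.97 FPKM at t40.

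**Figure D2:**
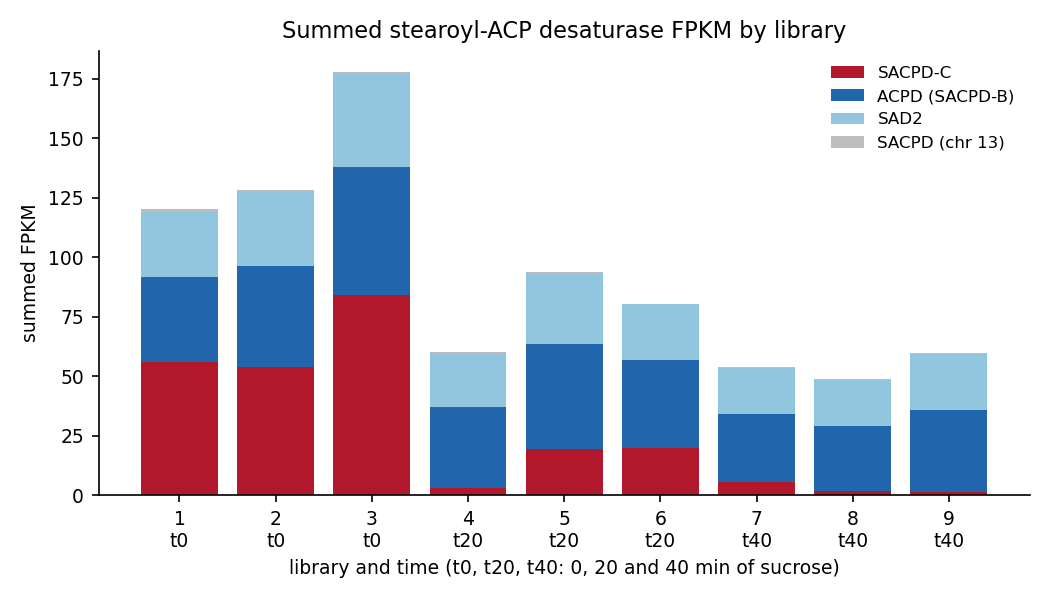
Summed FPKM of the 4 stearoyl-ACP desaturase genes in each library, divided into SACPD-C, ACPD, SAD2 and SACPD, with libraries grouped as t0, t20 and t40. SACPD-C made up 42.1% to 47.2% of the bar at t0 and 2.61% to 10.1% at t40.

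The ratio of SACPD-C to ACPD within a library does not depend on how the library was scaled. SACPD-C stood at 1.55, 1.27 and 1.56 times the FPKM of ACPD at t0. At t20 the ratio was 0.0856, 0.436 and 0.531, and at t40 it was 0.192, 0.0597 and 0.0455. SACPD-C was above ACPD in all 3 libraries of t0 and below it in the other 6.

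Besides SACPD-C, 20 genes have a symbol that starts with SACPD or FAD, and 12 of them reached 1 FPKM in at least 3 libraries and were tested. At 20 min 0 of the 12 were called in either direction (limma), against 0.766% of all genes called higher and 0.156% called lower. There 2 of the 12 had an unadjusted p under 0.05, as had 5604 of all 32763 genes. At 40 min 2 of the 12 (16.7%) were called higher, against 10.5% of all genes, and 1 (8.33%) was called lower, against 3.49%. With 12 genes, 1 gene is 8.33%, so these counts are not read as a result about the group. The median log2 fold change of the 12 was −0.30 at 40 min, against 0.06 over all genes tested.

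The omega-3 desaturase genes FAD7-1 and FAD7-2, whose plastid enzymes make linolenic acid, moved the opposite way to SACPD-C. FAD7-2 (chromosome 7) had 1.31, 1.07 and 0.924 FPKM at t0, 6.69, 1.86 and 4.07 FPKM at t20, and 19.0, 25.8 and 60.8 FPKM at t40. FAD7-1 (chromosome 18) had 8.29, 6.03 and 4.78 FPKM at t0, 12.1, 7.93 and 10.1 FPKM at t20, and 23.4, 25.0 and 45.5 FPKM at t40. For both genes all t40 libraries were above all t0 libraries, as they were for 26.6% of all genes.

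At 40 min FAD7-2 rose by 3.94 (SE 0.43, adjusted p = 0.000921) and FAD7-1 by 2.10 (SE 0.28, adjusted p = 0.00167) on the log2 scale (limma). At 20 min the values were 1.20 for FAD7-2 (adjusted p = 0.199) and 0.59 for FAD7-1 (adjusted p = 0.323), and neither was called. Between t40 and t20 the values were 2.74 for FAD7-2 (adjusted p = 0.0251) and 1.502 for FAD7-1 (adjusted p = 0.0394), so both were called there too. In that comparison 2 of the 12 were called higher and 0 lower, against 1.30% and 0.0580% of all genes. There 3 of the 12 had an unadjusted p under 0.05, as had 5858 of all 32763 genes. The calls at 40 min held without each library in turn. Those between t40 and t20 held in 6 of 9 such fits for FAD7-2 and in 2 of 9 for FAD7-1. Whether reads were shared between the FAD7 genes in the counting is not known.

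**Figure D3:**
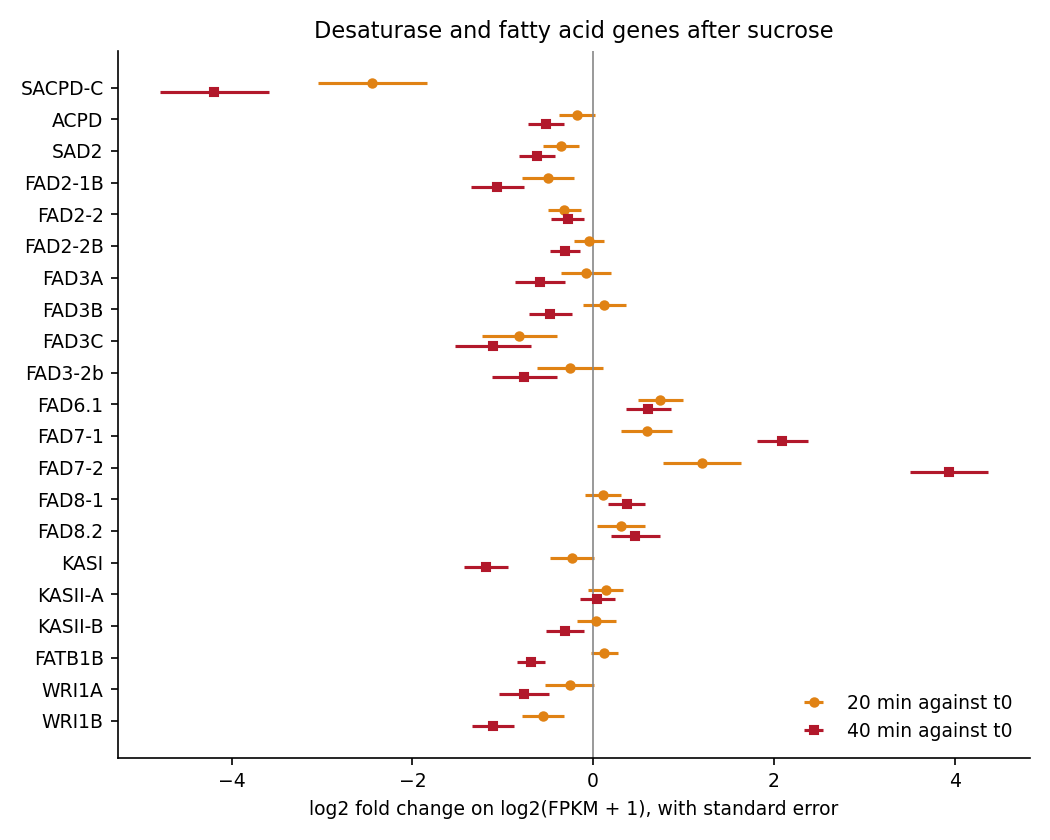
Log2 fold change, on the log2(FPKM + 1) scale, at 20 min and at 40 min against t0 for SACPD-C, the other tested stearoyl-ACP desaturases, the tested FAD genes, and KASI, KASII-A, KASII-B, FATB1B, WRI1A and WRI1B. Bars are standard errors of the limma fit to all 9 libraries. SACPD-C lies at −2.44 and −4.19, and FAD7-2 at 1.20 and 3.94.

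FAD2-1B, an omega-6 desaturase known for its role in seed oil, was the gene called lower at 40 min. It had 0.979, 2.19 and 2.10 FPKM at t0, 0.280, 1.22 and 1.44 FPKM at t20, and 0.142, 0.156 and 0.642 FPKM at t40. These are low levels, close to the filter of 1 FPKM. The log2 fold change at 40 min was −1.06 (SE 0.29, adjusted p = 0.0286, limma), and the call was lost without library 2, 3, 7 or 8, with adjusted p up to 0.0986.

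The other 9 tested FAD genes were not called at any time in the main fit. FAD2-2 and FAD2-2B, omega-6 desaturases, were the most abundant of them, at 66.6 to 104 FPKM and 64.6 to 90.6 FPKM over the 9 libraries. Their log2 fold changes at 40 min were −0.28 and −0.31. Among the omega-3 desaturases of the endoplasmic reticulum, FAD3C had 11.2, 19.7 and 12.9 FPKM at t0, 3.49, 13.9 and 8.63 FPKM at t20, and 4.63, 5.07 and 9.27 FPKM at t40. FAD3C, with a log2 fold change of −1.11 at 40 min, missed the adjusted threshold (adjusted p = 0.0780, limma). It was called lower under 4 of 19 alternatives, among them 2 of the 9 fits leaving out 1 library. FAD3-2b, FAD3A and FAD3B had log2 fold changes of −0.76, −0.58 and −0.47 at 40 min. The plastid desaturases FAD6.1, FAD8.2 and FAD8-1 had 0.61, 0.47 and 0.37. FAD6.1 had 4.63, 5.70 and 2.83 FPKM at t0 and 9.38, 7.52 and 6.65 FPKM at t20. Its log2 fold change of 0.74 at 20 min was not called (adjusted p = 0.176, limma). The 8 symbols below the filter were SACPD, FAD2-1A, FAD2-2A, FAD2-2D, FAD2-3, FAD5.1, FAD5.2 and FAD6.2. FAD2-1A and FAD2-2A were listed at 0 in all libraries.

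Genes of the steps around the desaturase were taken from 17 identifiers with symbols of fatty acid synthesis and storage, of which 15 were tested and OLEO1 and accD fell below the filter. At 20 min 0 of the 15 were called by limma, against 0.766% of all genes higher and 0.156% lower. There 1 of the 15 had an unadjusted p under 0.05, as had 5604 of all 32763 genes. At 40 min 0 were called higher, against 10.5% of all genes, and 2 (13.3%) were called lower, KASI and WRI1B, against 3.49%. An unadjusted p under 0.05 was found for 6 of the 15 there, and for 12808 of all 32763 genes. The median of the 15 was −0.25 at 40 min, against 0.06 over all genes. Between t40 and t20 0 of the 15 were called in either direction, against 1.30% of all genes higher and 0.0580% lower. There 4 of the 15 had an unadjusted p under 0.05, as had 5858 of all 32763 genes. The symbol ACP1 is also in use for an acid phosphatase of soybean and the reference gives no product, so its place in the list is unsure.

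KASI, a condensing enzyme that lengthens the acyl chain upstream of stearoyl-ACP, had 41.3, 55.5 and 64.7 FPKM at t0, 34.7, 60.2 and 43.6 FPKM at t20, and 21.4, 20.8 and 26.2 FPKM at t40. WRI1B carries the symbol of WRINKLED1, a transcription factor that activates fatty acid synthesis genes in Arabidopsis. It had 5.97, 7.97 and 6.67 FPKM at t0, 2.98, 6.27 and 4.21 FPKM at t20, and 2.94, 2.23 and 2.78 FPKM at t40. All t40 libraries of both genes were below all t0 libraries, as they were for 20.8% of all genes. KASI fell by 1.19 (SE 0.24, adjusted p = 0.00945) and WRI1B fell by 1.11 (SE 0.23, adjusted p = 0.0103) on the log2 scale at 40 min (limma). KASII-A and KASII-B, whose enzymes make the stearoyl-ACP that the desaturase uses, had log2 fold changes of 0.05 and −0.31 and were not called. FATB1B, a thioesterase that releases saturated fatty acids, had 20.8, 22.3 and 18.2 FPKM at t0, 22.8, 22.9 and 21.2 FPKM at t20, and 12.0, 12.3 and 12.5 FPKM at t40. At 40 min FATB1B had a log2 fold change of −0.69 (adjusted p = 0.0126, limma), short of the threshold of 1 for the sum of its 4 transcripts. For its most abundant transcript alone it was −3.61 (adjusted p = 0.000157), which is called. In the same setting KASII-B was called too, at −1.76 (adjusted p = 0.0252), and WRI1B was not, at −0.81 (adjusted p = 0.0742).

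The 10 genes whose pattern was most like that of SACPD-C were ranked by Pearson's r of log2(FPKM + 1) over the 9 libraries, among 3117 genes with a mean of at least 5 FPKM and a span of at least 2 on the log2 scale. The 9 libraries share the 3 times, so a gene with the same order of times can score high. LBD37, on chromosome 8 at 46996586 to 46998028, was first with r = 0.994. It belongs to the LATERAL ORGAN BOUNDARIES domain transcription factors, and its Arabidopsis namesake is known as a repressor of nitrogen-responsive genes. LBD37 had 45.6, 30.6 and 52.9 FPKM at t0, 5.55, 20.6 and 18.6 FPKM at t20, and 7.05, 3.60 and 3.82 FPKM at t40. As with SACPD-C, library 4 was lowest of t20 and below library 7 of t40, an order that the ranking over these libraries favors.

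The other 9 were LOC100779051 (r = 0.987), LOC100816661, LOC100789053, LOC100807854, LOC100814897, LOC100527721, the joined identifier of LOC100527104 and LOC100527623, LOC100792416 and LOC100305771 (r = 0.974). LOC100779051 had 70.9, 83.4 and 103 FPKM at t0, 0.0742, 14.4 and 24.5 FPKM at t20, and 3.21, 0.592 and 0.338 FPKM at t40. All 10 had t20 and t40 below t0 without overlap, against 7.73% of all genes at t20 and 20.8% at t40, which follows from how they were picked. All 10 also had their lowest t20 value in library 4, at a median of 98.9% of the way to the t40 mean. Libraries 5 and 6 stood at medians of 42.9% and 38.1%. This order of the t20 libraries too follows from how the genes were picked, by likeness to SACPD-C over these same libraries. The 10 genes lie on 7 chromosomes, and 0 of them on chromosome 14. None carries a desaturase symbol, and LBD37 is the only one with a symbol other than a LOC number. The members of the list depend on the measure, since 5 of the 10 were kept with Spearman's rho and 6 without library 3.

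**Figure D4:**
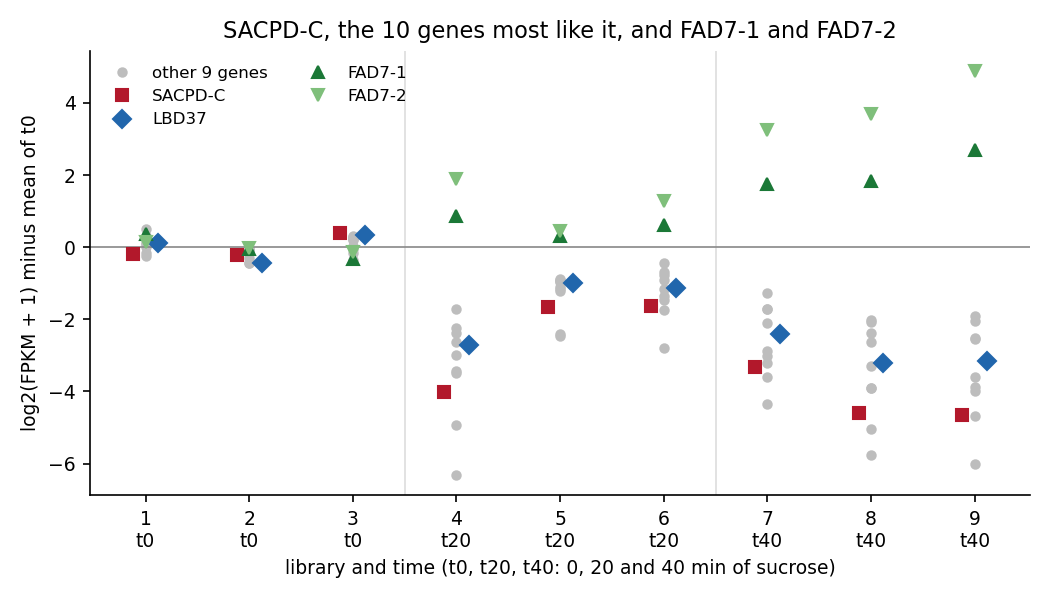
Difference of log2(FPKM + 1) from the mean of t0 in each of the 9 libraries for SACPD-C, LBD37, the other 9 most like genes, FAD7-1 and FAD7-2. Each point is 1 gene in 1 library. SACPD-C and the 10 genes are lower in library 4 than in libraries 5 and 6, and the FAD7 genes are higher in library 4 than in libraries 5 and 6. The 10 genes were picked by their likeness to SACPD-C over these libraries.

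Among the desaturase and lipid genes, WRI1B was closest to SACPD-C with r = 0.938, followed by FAD2-1B (0.854), KASI (0.839), SAD2 (0.831) and ACPD (0.775). FAD7-2 (−0.917) and FAD7-1 (−0.892) ran most opposite to it, followed by the lipid genes DGAT1b (−0.848) and DGAT1A (−0.748). With the mean of each time taken away, r with SACPD-C was 0.70 for WRI1B, 0.54 for FAD2-1B and 0.53 for KASI. It was 0.34 for SAD2, 0.37 for ACPD, −0.72 for FAD7-2, −0.59 for FAD7-1, −0.62 for DGAT1b and −0.54 for DGAT1A. For LBD37 it was 0.97, but LBD37 was picked by its r with SACPD-C over these libraries, which favors a high value. Library 4, far from the mean of its group for SACPD-C, weighs on all these values, and r without it is not given. These values describe 9 libraries that differ in time.

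Of the 5 nearest annotated genes on each side of SACPD-C on chromosome 14, 3 were tested and 0 were called at any time (limma). An unadjusted p under 0.05 was found for 1 at 20 min and 2 at 40 min. Of all 32763 genes, 5604 and 12808 had one at these times. At 40 min 10.5% of all genes were called higher and 3.49% lower, so 0 of 3 says little. LOC100800668, 35744 bases away, had 4.12, 3.75 and 5.58 FPKM at t0, 1.14, 3.47 and 2.63 FPKM at t20, and 1.70, 2.18 and 1.74 FPKM at t40. At 40 min it had a log2 fold change of −0.92 (adjusted p = 0.0333, limma), short of the threshold of 1. It was called under 4 alternatives, both smaller pseudocounts, quantile normalization and median-ratio scaling, with values down to −1.21. The nearest gene on the other side, LOC102669291, was listed at 0 in all 9 libraries.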

How the data were processed

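RNA-seq of 9 soybean root tip libraries was analysed from the deposited table. The authors used Trimmomatic 0.32 for trimming and HISAT2 for alignment to Glycine_max_v4.0, assembled transcripts with StringTie and extracted FPKM with Ballgown. The deposited FPKM of 119600 transcripts were summed per gene identifier. The file also gives coverage in 9 columns, which were not used. The number of reads per library is not known from FPKM alone. The study lists read pairs and alignment rates per library. The lowest number of read pairs was that of a t40 library, and every t40 library had a lower alignment rate than every t0 and t20 library. Whether this contributed to the differences at t40 was not tested. These numbers were not used here, so no counting interval is given. Column names give the time but no replicate number, so libraries are called 1 to 9.

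Genes with at least 1 FPKM in at least 3 of 9 libraries (32763) were tested on log2(FPKM + 1) with limma 3.58.1 in R 4.3.3 (lmFit, eBayes with trend) over all 9 libraries, with Benjamini-Hochberg adjustment over all of them. The fit was tested on simulated data. Within a time, the 3 libraries are biological replicates from 3 plants. Whether a plant was sampled at more than 1 time is not stated.

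The members and lists were chosen with earlier results of these data known. Named were SACPD-C, every SACPD or FAD symbol, up to 5 other lipid genes called at 40 min, the 5 nearest genes on each side and the 10 most like genes. KASII, FATB1B, OLEO1, accD, ACP1, DGAT1b, DGAT1A, IFS2, NRT2 and PIN1B were named after their values were seen. The list of stearoyl-ACP desaturases by synonym was added after the reference synonyms were seen. Lists of relatives by protein were not run, since no protein sequences were used here. Gene symbols, synonyms and positions are those of the deposited table and of RefSeq for the same build. Alternatives were pseudocounts of 0.5 and 0.1, quantile and median-ratio scaling, other filters and thresholds, single transcripts, 2-group fits, no variance trend and leaving out each library.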

Additional observations from a re-analysis of the deposited data

Results flagged for a closer look

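For 3 genes the effect at 40 min differed from that at 20 min by a direct test of the difference, the contrast of t40 with t20 (limma, Benjamini-Hochberg over all genes tested). They were picked by an adjusted p under 0.05 from the 12 tested SACPD and FAD genes, ACPD, SAD2 and the 15 other lipid genes tested. No log2 threshold was set for this, and the share of all genes that pass it is not given here. For FAD7-2 the difference was 2.74 on the log2 scale (adjusted p = 0.0251), higher in 3 of 3 t40 libraries than in any t20 library. For FAD7-1 it was 1.502 (adjusted p = 0.0394), also higher in 3 of 3. For FATB1B it was −0.81 (adjusted p = 0.0381), lower in 3 of 3, short of the threshold of 1 for the gene sum and −3.72 for the most abundant transcript alone. Leaving out 1 library raised the adjusted p to as much as 0.0852 for FAD7-2, 0.138 for FAD7-1 and 0.153 for FATB1B (limma). The calls held in 6 of 9 such fits for FAD7-2 and in 2 of 9 for FAD7-1. The share of all genes with t40 and t20 libraries separated in this way is not given here, so these separations are not read further.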

How the results depend on the processing

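No paired analysis was possible because the columns carry no replicate numbers. The log2 difference of SACPD-C kept its sign with both other pseudocounts and both scalings. The setting with the most abundant transcript cannot change it, since SACPD-C has 1 transcript. Leaving out 1 library, the difference ran from −2.85 to −1.65 at 20 min and from −4.63 to −3.96 at 40 min. Between t40 and t20 it ran from −2.54 to −1.34. Genes called at 20 min, 302 in all, were 465 with a pseudocount of 0.5, 706 with 0.1, 141 with quantile normalization, 132 with median-ratio scaling, 8 with the most abundant transcript alone, 0 with no filter beyond FPKM above 0 and 1 in a fit of only t20 and t0. They were 0 without library 2, 4 or 6 and 2233 without library 5. Genes called at 40 min, 4585 in all, were 2192 with a log2 threshold of 1.5, and 3001 (without library 8) to 5367 (without library 1) leaving out 1 library. Genes called between t40 and t20, 444 in all, were 250 with a pseudocount of 0.5, 17 with 0.1, 138 with the most abundant transcript, 109 with no filter, 145 in a fit of only t40 and t20, 243 with a threshold of 1.5, and 0 (without library 9) to 1307 (without library 4) leaving out 1 library. At an unadjusted p under 0.05, 5604 genes passed at 20 min, 12808 at 40 min and 5858 between t40 and t20.

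SACPD and FAD genes called higher between t40 and t20, 2 in all, were 1 with a pseudocount of 0.5 or the most abundant transcript and 0 with a pseudocount of 0.1, no filter or a fit of only t40 and t20. Those called lower at 40 min, 1 in all, were 2 with quantile normalization or a fit of only t40 and t0 and 0 with the most abundant transcript, no filter or a threshold of 1.5. Both counts ran from 0 to 2 leaving out 1 library. Other lipid genes called lower at 40 min, 2 in all, were 0 with a threshold of 1.5 and 3 with the most abundant transcript, where KASII-B and FATB1B were gained and WRI1B was lost, and those between t40 and t20 were 1 with the most abundant transcript and 0 to 1 leaving out 1 library. Of the 10 genes most like SACPD-C, 5 were kept with Spearman's rho and 6 to 10 leaving out 1 library. Quantile normalization moved the median of all genes at 40 min to −0.11, against 0.06 as deposited. Depth cannot be read from FPKM alone, and the read numbers that the study lists were not used. How firmly values under 1 FPKM are measured was therefore not assessed.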
